A study of Oryza sativa with 6 samples.

Results

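The 6 rice genes described here are named for enzyme families with members in lignin formation, or for relatives of these. The part of each gene in lignin formation was not tested here. They are the laccases LAC4 (LOC4327500) and LAC20 (LOC4351006), the class III peroxidase PRX74 (LOC4339222), the 4-coumarate:CoA ligase 4CL3 (LOC4328485), the ligase-like gene 4CLL7 (LOC4342925) and the cinnamyl alcohol dehydrogenase CAD2 (LOC4328552, also GH2). All probe sets that the array annotation maps to these loci were taken, which gave 1 probe set for each gene, 6 of 57381 on the array. The 6 genes are among 17905 with a locus in that annotation. They had been selected on their measured log2 differences between the groups below, in fits of these same arrays, so their values in every comparison are a description and carry no test.

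Transcripts were measured in rice seedlings (Oryza sativa) grown untreated at 28 °C to the 4-leaf stage, on 1-colour Affymetrix arrays, with 2 biological replicates in each of 3 groups. Wild type was cultivar Nipponbare. The overexpression group (OX) carried a construct that overexpresses OsUBA, and the RNAi group a construct that targets OsUBA by RNA interference, in which double-stranded RNA lowers the matching transcript. The labels name no promoter, no locus for OsUBA, no cultivar for the transgenic plants, no number of independent lines and no plants transformed without an OsUBA sequence. The level of OsUBA itself was therefore not examined here, and effects of OsUBA cannot be told apart from those of transformation or of a single line.

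Lignin is the phenolic polymer that stiffens the secondary walls of xylem and fibres. Its building blocks, the monolignols, are made from phenylalanine. PAL opens the route, and 4-coumarate:CoA ligases activate the hydroxycinnamic acids as CoA esters. HCT enzymes act in the shikimate ester steps, methyltransferases modify the ring, and the reductases CCR and CAD turn the CoA esters into alcohols. The alcohols are exported to the wall, where laccases, with oxygen, and class III peroxidases, with hydrogen peroxide, oxidise them to the radicals that couple into the polymer. Both oxidase families are large, and many members have other or unknown substrates. CAD2 is the CAD whose loss gives rice its gold hull and internode phenotype with reddish-brown tissue.

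Values are deposited log2 expression values, and an array difference of 1 on this scale is a doubling or halving. The median log2 value of an array lay between 5.67 and 5.92. Replicates of a group correlated at 0.913 to 0.916 over kept probe sets and arrays of different groups at 0.852 to 0.911, and probe sets are not independent replicates. A probe set was kept when at least 2 arrays reached log2 5, which left 40466, all 6 genes included. PRX74 passed this filter only through the OX arrays, so a difference was built into its passing. A fold against a group whose mean lies under log2 5 is given as a lower bound counted from log2 5. It is taken between group means, so it allows for values under log2 5 and not for the spread between arrays. Group means are ± SD (n = 2) and differences ± the SE of the limma fit described under processing. With 2 arrays a group the precision is limited throughout.

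Of the genes named for monolignol synthesis, 4CL3 and CAD2 were low in RNAi, while the ligase-like gene 4CLL7 was high there. 4CL3, which activates hydroxycinnamic acids for the pathway, read 11.59 and 11.67 in wild type, 11.57 and 11.53 in OX, and 9.62 and 9.37 in RNAi. Wild type and OX lay within 0.14 of each other on all 4 arrays, and both RNAi arrays stood apart below them by 1.92 or more. The mean was 11.63 ± 0.05 in wild type, 11.55 ± 0.02 in OX and 9.50 ± 0.17 in RNAi, so RNAi was 4.40-fold lower than wild type (log2 difference -2.14 ± 0.17). OX differed from wild type by -0.08 ± 0.17, less than its own error.

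CAD2, which reduces the cinnamyl aldehydes to monolignols, read 11.95 and 11.97 in wild type, 12.72 and 12.32 in OX, and 10.42 and 9.80 in RNAi. The groups did not overlap and stood in the order OX, wild type, RNAi. The step from wild type down to RNAi (-1.85 ± 0.24, or 3.61-fold) was larger than the step from wild type up to OX (0.56 ± 0.24, or 1.47-fold). Between OX and RNAi the difference was 2.41 ± 0.24.

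4CLL7 is related in sequence to the 4-coumarate:CoA ligases, but its substrate is not assumed here. It read 9.12 and 8.90 in wild type, 8.19 and 8.68 in OX, and 10.19 and 11.14 in RNAi. Its order, RNAi above wild type above OX, is that of CAD2 turned round. The RNAi mean (10.67 ± 0.67) exceeded wild type (9.01 ± 0.16) by 1.66 ± 0.34, or 3.16-fold, and OX (8.43 ± 0.34) by 2.23 on the log2 scale. The gap between the wild-type and OX arrays was only 0.22, as large as the gap between the 2 wild-type arrays.

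**Figure D1:**
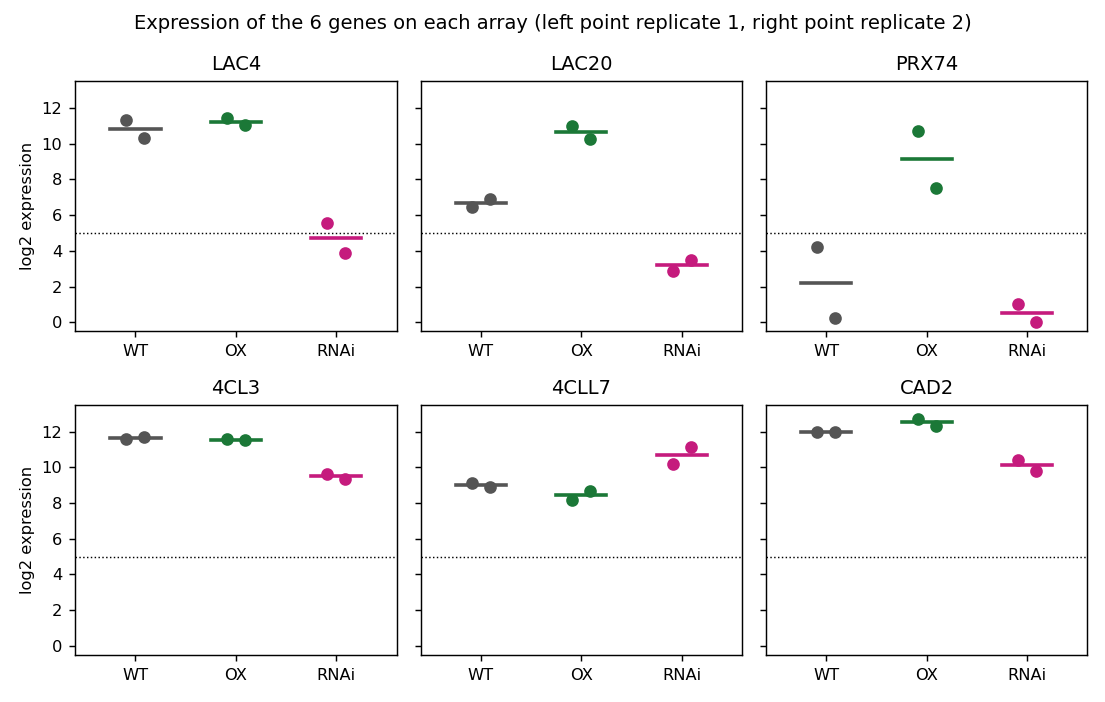
Log2 expression (y axis) of each of the 6 genes in wild type (WT), OX and RNAi; points are arrays, bars are group means of 2 arrays, and the dotted line is the filter's log2 5. LAC4, LAC20, 4CL3 and CAD2 are lowest in RNAi, 4CLL7 is highest there, and PRX74 is above log2 5 on the OX arrays only.

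Among the genes of the oxidase families, the RNAi arrays were low for both laccases, and the OX arrays were high for LAC20 and PRX74. LAC4 read 11.31 and 10.34 in wild type, 11.41 and 11.02 in OX, and 5.58 and 3.89 in RNAi. Wild type and OX overlapped, and the higher RNAi array was 4.76 below the lower wild-type array. The RNAi mean of 4.73 ± 1.20 lay under log2 5 and the wild-type mean was 10.83 ± 0.69. By these means LAC4 was at least 56.7-fold lower in RNAi than in wild type (log2 difference as measured -6.10 ± 0.55). RNAi replicate 1 itself lay above log2 5, at 5.58, so single arrays can differ by less than that bound. OX differed from wild type by 0.39 ± 0.55.

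LAC20 read 6.46 and 6.89 in wild type, 10.99 and 10.26 in OX, and 2.86 and 3.50 in RNAi. The 3 groups stood clear of each other, with OX above wild type by 3.95 ± 0.44 (15.5-fold) and RNAi below wild type by 3.49 ± 0.44 on the log2 scale. Because the RNAi mean (3.18 ± 0.45) lay under log2 5, the fold there is a bound, at least 3.19-fold lower than wild type and at least 49.2-fold lower than OX.

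PRX74 read 4.19 and 0.22 in wild type, 10.72 and 7.51 in OX, and 1.04 and 0.00 in RNAi. Wild type and RNAi overlapped and both averaged under log2 5, so no difference between them is given. The OX arrays were 3.21 apart, and the lower one still exceeded the higher wild-type array by 3.32. By its mean, PRX74 in OX (9.11 ± 2.27) was 17.3-fold above log2 5, the level from which both other groups are counted. From OX replicate 2 alone, at 7.51, that fold would be smaller. The SE of PRX74, 1.76, was the widest of the 6 genes.

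**Figure D2:**
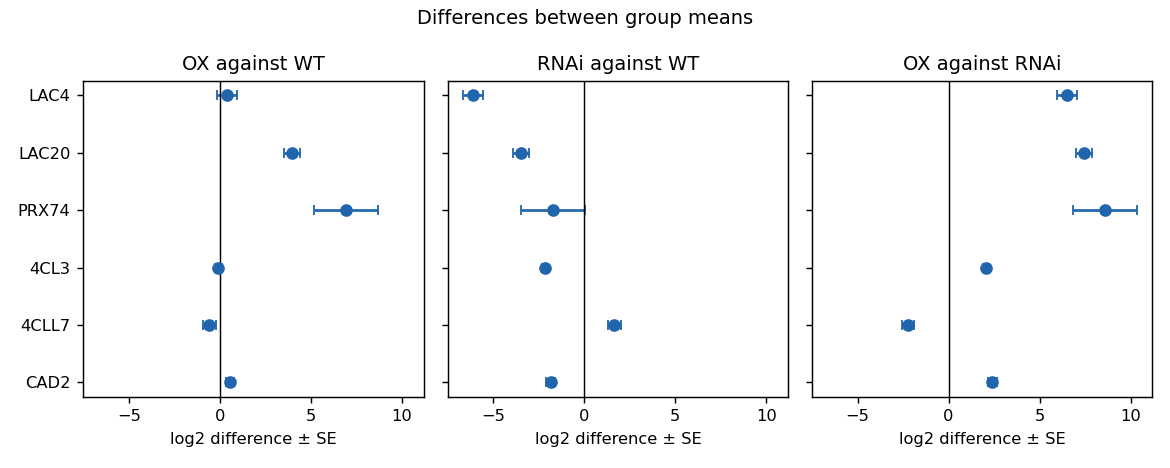
Log2 difference ± SE (x axis) between group means for each gene in the 3 comparisons. Differences of LAC4, LAC20 and PRX74 against RNAi, and of PRX74 against wild type, involve a group mean under log2 5 and are plotted as measured, with no fixed size; those of 4CL3, CAD2 and 4CLL7 reach at most 2.41.

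Read across the groups, LAC4 and 4CL3 were low in RNAi with OX near wild type, LAC20 and CAD2 were graded from OX through wild type to RNAi, 4CLL7 was graded the other way, and PRX74 was high in OX only. The graded order of LAC20 and CAD2, without overlap of arrays, was shown by 4.42% of all kept probe sets, and that of 4CLL7 by 4.71%. For wild type and OX both above RNAi, which 4 of the 6 genes showed, the share over all kept probe sets was 11.9%, and for OX above both other groups, as in LAC20, CAD2 and PRX74, it was 10.4%. In the limma fit with an intensity trend, LAC20 passed an adjusted p of 0.05 between OX and wild type (1 of 6, against 0.356% of all kept probe sets, or 0.346% that were higher in OX). LAC4, LAC20, 4CL3 and CAD2 passed between RNAi and wild type (4 of 6, all lower in RNAi, against 0.773%, or 0.583% that were lower), and all 6 passed between OX and RNAi (6 of 6, against 4.26%), 5 of them higher in OX, as were 3.31% of all kept probe sets, and 4CLL7 lower, as were 0.954%. These calls are how such genes came to be picked, and nothing is read from the counts. In the limma fit without a trend 0 of the 6 passed in any comparison, with 2, 5 and 6 of them at an unadjusted p under 0.05 in the same order of comparisons.

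The 3 comparisons share groups, so the differences of a gene are not independent of each other. Leaving out 1 array at a time moved the difference between RNAi and wild type from -6.94 to -5.25 for LAC4, from -3.81 to -3.17 for LAC20, from -2.26 to -2.01 for 4CL3, from -2.16 to -1.54 for CAD2 and from 1.18 to 2.13 for 4CLL7. In the fits without 1 wild-type array, 0 of the 6 genes passed between RNAi and wild type or between OX and wild type. Between OX and RNAi, LAC4, LAC20, 4CL3 and CAD2 passed in all 6 such fits, 4CLL7 in 5 and PRX74 in 3. Without RNAi replicate 1, 4CLL7 passed between RNAi and wild type as well.

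Replicate spread differed widely among the genes. The SD between replicates, pooled over the 3 groups, was 0.10 for 4CL3, 0.30 for CAD2, 0.43 for LAC20, 0.44 for 4CLL7, 0.81 for LAC4 and 2.12 for PRX74. Probe sets within 0.5 of the mean of LAC4 had a median SD of 0.25, and 96.2% of them were less variable than LAC4. For PRX74 that median was 1.49, with 87.9% less variable, and for 4CL3 it was 0.19, with 17.5% less variable. RNAi replicate 2 lay beyond replicate 1 in the direction away from wild type for LAC4 (by 1.69), CAD2 (by 0.62), 4CL3 (by 0.24) and 4CLL7 (by 0.95), and LAC20 was the other way round (by 0.64).

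**Figure D3:**
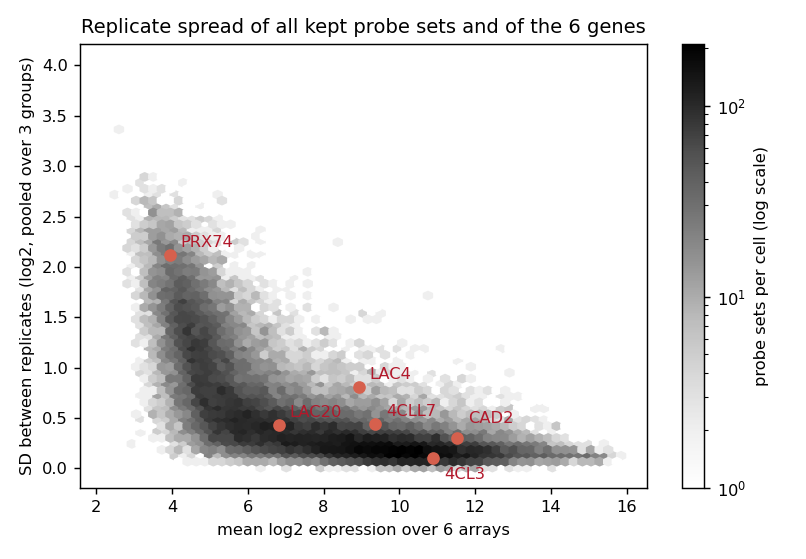
SD between replicates in log2 units, pooled over the 3 groups (y axis), against the mean log2 expression over 6 arrays (x axis); grey cells count all 40466 kept probe sets and red points are the 6 genes. PRX74 lies in the dim, variable range at an SD of 2.12 and 4CL3 at 0.10, while LAC4 at 0.81 is variable for its brightness.

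The rest of the pathway was read from gene names. Of 36 other genes whose names match laccases, peroxidases, PAL, 4-coumarate:CoA ligases, 4CL-like enzymes, HCT, methyltransferases, CCR and CAD, 27 had a probe set and 25 passed the filter. Only 2 genes carry a PRX name in the gene table used and 1 a PAL name, none carries a C4H, CYP98A or F5H name, and no gene matched the list of secondary wall regulators, so the lists cover named genes and not whole families. Between OX and RNAi, 4 of the 25 passed as higher in OX than in RNAi, 0 passed as lower and 21 did not pass. Of all kept probe sets, 3.31% passed as higher in OX and 0.954% as lower. The 4 were LAC10, 4CL4, ROMT-15 and HCT2. The median log2 difference of the 25 was 0.49, against -0.09 over all kept probe sets.

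LAC10 (LOC4332400), a laccase, read 10.17 and 8.86 in OX, 6.10 and 6.31 in RNAi, and 6.18 and 6.63 in wild type. It was 9.96-fold higher in OX than in RNAi (log2 difference 3.32 ± 0.47, limma adjusted p = 0.00881). RNAi and wild type overlapped, as in PRX74, and OX against wild type just missed the threshold (3.12 ± 0.47, limma adjusted p = 0.0508). 4CL4 (LOC4341718), a 4-coumarate:CoA ligase, read 12.82 and 12.49 in OX, 11.43 and 11.23 in RNAi, and 12.00 and 12.01 in wild type (OX against RNAi 1.33 ± 0.17, limma adjusted p = 0.0068). It had the graded order of CAD2. A dimmer probe set of 4CL4 did not pass (0.38 ± 0.99, limma adjusted p = 0.884), and the call of 4CL4 was lost when its probe sets were averaged (limma adjusted p = 0.34).

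ROMT-15 (LOC4345934), an O-methyltransferase by name, read 13.80 and 13.35 in OX, 12.26 and 12.52 in RNAi, and 13.37 on both wild-type arrays (OX against RNAi 1.18 ± 0.19, limma adjusted p = 0.0153). HCT2 (LOC4329959), a hydroxycinnamoyltransferase, read 11.50 and 10.82 in OX, 10.13 and 9.46 in RNAi, and 11.27 and 11.00 in wild type (OX against RNAi 1.36 ± 0.30, limma adjusted p = 0.0487). In both genes OX and wild type overlapped and RNAi was the low group, as in LAC4. The call of HCT2 ended in 9 of 12 other settings that were tried, some at an adjusted p as near as 0.0504. All 4 calls ended without OX replicate 1 (limma adjusted p = 0.0883 to 0.31) and without an intensity trend.

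Against wild type none of the 25 passed in either transgenic group (limma; 2 for OX and 8 for RNAi had an unadjusted p under 0.05, where 9.54% and 10.9% of all kept probe sets did). In RNAi the means of the 4 other 4-coumarate:CoA ligases were all below wild type, by differences from -1.59 (4CL1) to -0.66 (4CL2), and their median was -0.89, against 0.00 over all kept probe sets. The 7 other CCR and CAD genes had a median of 0.24 in that comparison, with 4 positive. CAD1 and CAD3 differed by -0.05 ± 0.17 and 0.24 ± 0.15, where CAD2 stood at -1.85. The 2 other 4CL-like genes, 4CLL1 and 4CLL4, differed by -0.13 and -0.16, where 4CLL7 stood at 1.66. LAC7 (LOC4324802) had the most negative value of the 25 (-4.94 ± 1.14, limma adjusted p = 0.137), with wild-type arrays at 14.16 and 11.21 and RNAi arrays at 9.35 and 6.15.

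Different probe sets of a gene did not always give the same picture. ROMT-17 (LOC4345935) has 4 probe sets. Between OX and RNAi it did not pass by its brightest (-0.14 ± 0.62), nor by those at -0.64 ± 0.73 and -0.01 ± 0.53. The remaining probe set passed, at 11.20 and 10.47 in OX, 8.68 and 9.05 in RNAi and 9.18 and 8.88 in wild type (limma adjusted p = 0.0106). Each of the 6 genes described here has 1 probe set only, so no such check within a gene is possible for them. None of those 6 carries the suffix that the maker uses for probe sets able to bind several genes, and none is mapped to a further gene. That of CAD2 is of the kind that reads alternative transcripts of a gene together.

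**Figure D4:**
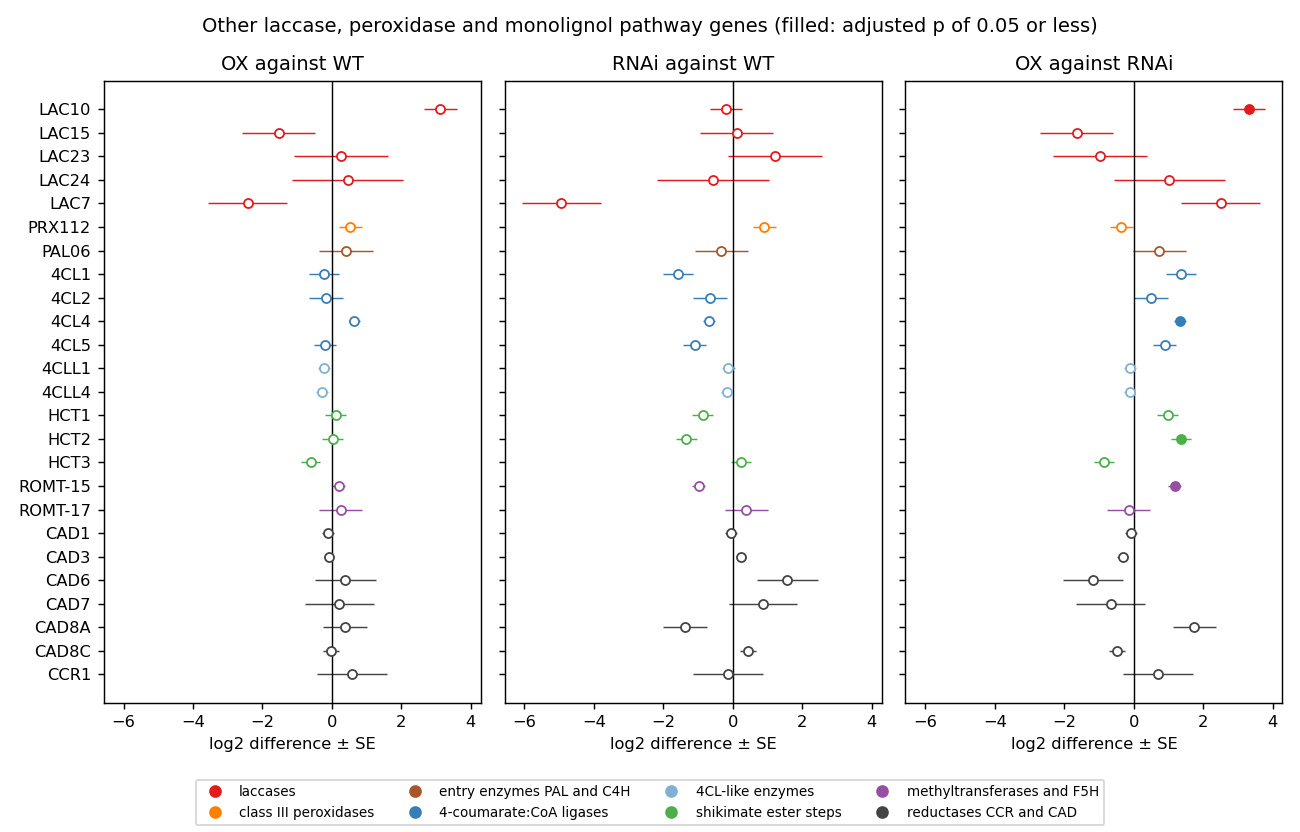
Log2 difference ± SE (x axis) of the 25 other kept pathway genes in the 3 comparisons, 1 probe set per gene; colours give the list and filled points passed an adjusted p of 0.05. Only LAC10, 4CL4, HCT2 and ROMT-15 are filled, all between OX and RNAi.

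Of 5 marker loci of the secondary wall, 4 had lower means in RNAi than in wild type, as had LAC4, LAC20, 4CL3 and CAD2, and 1 passed. CESA4, CESA7 and CESA9, the cellulose synthases of secondary walls, and BC1 (LOC4333114), a COBRA-like protein of those walls, differed between RNAi and wild type by -4.09 ± 0.45, -4.68 ± 0.95, -3.82 ± 0.66 and -2.76 ± 0.54. Of these CESA4 passed (limma adjusted p = 0.012) and CESA7, CESA9 and BC1 did not (0.0959, 0.0554 and 0.0848); all 4 passed between OX and RNAi. The call of CESA4 against wild type ended without wild-type replicate 1 or 2 (limma adjusted p = 0.172 and 0.106), and those of CESA7, CESA9 and BC1 between OX and RNAi ended without OX replicate 1 (0.186, 0.128 and 0.15). That of CESA7 ended as well without OX replicate 2 or either wild-type array (limma adjusted p = 0.0646 to 0.0779). A second locus with the synonym BC1 (LOC4347540) lay near or under log2 5 and differed by 1.50 ± 1.87. The log2 summed level of the 5 genes was 12.93 to 13.22 in wild type, 13.32 to 14.10 in OX and 8.19 to 10.18 in RNAi. In these seedling samples, fewer cells with secondary walls and less RNA per such cell cannot be told apart. The part of either in the values of LAC4, LAC20, 4CL3 and CAD2 was not tested.

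The sums over other tissue markers are set mostly by their brightest genes. That of 6 green leaf genes was log2 17.04 to 17.27 in wild type, 17.10 to 17.15 in OX and 17.06 to 17.20 in RNAi. Of these PORA, a protochlorophyllide reductase, passed, at 12.24 and 9.97 in wild type, 13.62 and 12.94 in OX and 7.24 and 5.76 in RNAi. It was 24.3-fold lower in RNAi than in wild type (log2 difference -4.60 ± 0.73, limma adjusted p = 0.0428), a call that ended in 7 of 12 other settings, and it passed between OX and RNAi as well (6.78 ± 0.73, limma adjusted p = 0.00325). CAB2R, a light-harvesting protein gene that marks leaf tissue, read 15.61 to 15.84 on the 6 arrays of these labelled seedlings. For 8 cyclin and CDKB genes of dividing cells the sums were 9.92 on both wild-type arrays, 9.81 to 10.21 in OX and 9.51 to 9.70 in RNAi, and 0 of 8 passed in any comparison (limma). Their log2 differences between OX and wild type ran from -0.88 to 3.38. The largest were in the CYCB2 loci LOC4342121 (3.38) and LOC4336670 (2.71), whose wild-type means lay under log2 5. Both loci passed the filter only through the OX arrays, as PRX74 did. A difference was therefore built into their passing, and no shift of the list is read from these values. For SHR1, SCR1 and a WOX5 locus, the root markers with a probe set, the sums were 7.99 to 8.30 in wild type, 8.25 to 8.54 in OX and 8.58 to 8.63 in RNAi. For RNA integrity, signal near the 3′ end exceeded that near the 5′ end of the actin control by 3.21 to 3.56 in wild type, 3.18 to 3.39 in OX and 3.34 to 3.50 in RNAi. For the GAPDH control it did so by 2.96 to 3.21, 2.82 to 2.98 and 2.92 to 3.09. For the ubiquitin control the difference was -0.03 to 0.02 in wild type, 0.00 to 0.12 in OX and 0.07 to 0.21 in RNAi, so RNAi and wild type overlapped by the first 2 controls and not by ubiquitin, whose part in the RNAi values was not tested.

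**Figure D5:**
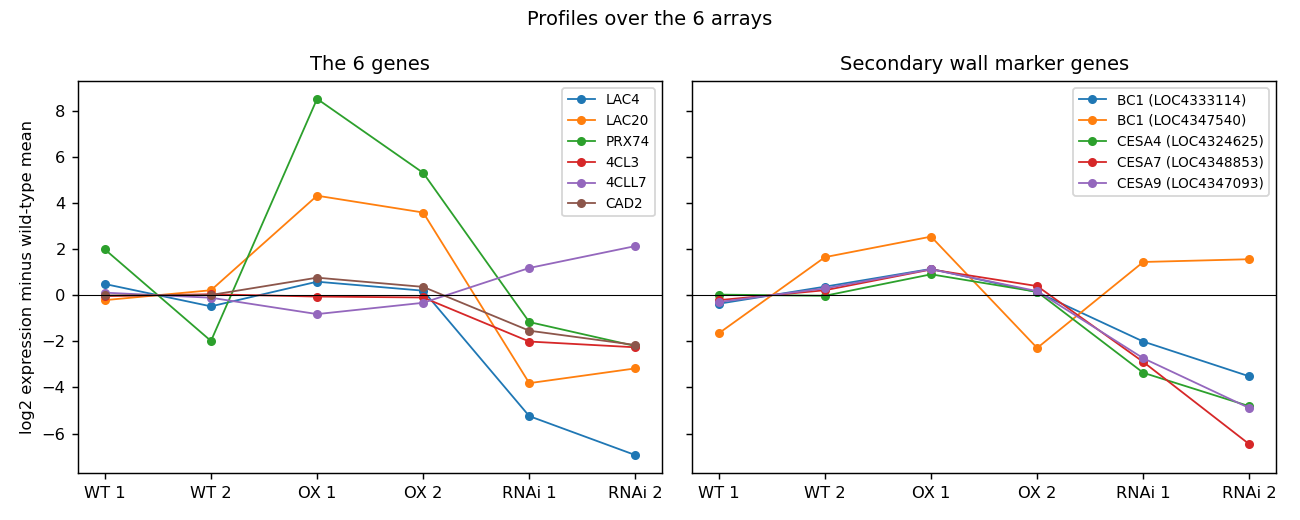
Log2 expression minus the wild-type mean (y axis) on each of the 6 arrays (x axis) for the 6 genes (left) and the 5 secondary wall marker loci (right); lines only join the points of a gene. CESA4, CESA7, CESA9 and BC1 (LOC4333114) are low on both RNAi arrays and lower on replicate 2 than on replicate 1, as are LAC4, 4CL3 and CAD2, while LAC20 is low on both with replicate 1 the lower.

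The likeness of other genes to each of the 6 was measured as the root mean square difference over the 6 arrays after centring each gene on its own mean, among 2284 other genes with a name. It is a description over 6 arrays in 3 groups, on which the 6 genes were themselves chosen. Nearest to LAC4 were PORA (0.87), CESA7 (0.91) and CESA4 (0.96), where the profile of LAC4 itself has a root mean square of 3.02. CESA4 read 11.77 and 11.72 in wild type, 12.65 and 11.89 in OX, and 8.38 and 6.93 in RNAi. Nearest to LAC20 were the sucrose synthase SUS1 (0.53), AT15 (0.60) and the kinesin KIN14F (1.01), against a root mean square of 3.05. SUS1 averaged 7.72 in wild type, 11.68 in OX and 4.59 in RNAi.

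Nearest to PRX74 were the lipid transfer protein gene LTP110-A (0.97), the germin-like gene GER5 (1.04) and CSLF8 (1.42), against 4.01. GER5 was higher on OX replicate 1 than on replicate 2, as PRX74 was, at 14.54 and 11.58. It read 9.99 and 6.64 in wild type, also with replicate 1 the higher, but there PRX74 lay under log2 5 on both arrays. In RNAi, where PRX74 was under log2 5 as well, replicate 2 was the higher for GER5 (5.17 and 5.92) and the lower for PRX74. The likeness to PRX74 thus rests in part on values under log2 5. For 4CL3 the nearest were MIF4 (0.21), GLU10 (0.24) and the homeobox gene HOX2 (0.28), against 0.99. For CAD2 they were OsRac6 (0.19), a small GTPase, MIF4 again (0.22) and GLU2 (0.23), against 1.05. For 4CLL7 they were the cytokinin oxidase gene CKX4 (0.26), MADS34 (0.28) and GLT2 (0.31), against 1.0. CKX4 averaged 10.77 in wild type, 10.09 in OX and 11.86 in RNAi. Among the 6 genes themselves, 4CL3 and CAD2 were closest to each other by this measure (0.30), and PRX74 and 4CLL7 were farthest apart (4.81). The measure also depends on how large the profiles are. By Pearson's r over the 6 arrays, LAC4 and 4CL3 were most alike (0.99) and 4CLL7 and CAD2 most opposed (-0.99).

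The 6 genes lie on 5 chromosomes of the RefSeq rice assembly ASM3414082v1, with 4CL3 and CAD2 on the same one but not next to each other. Up to 2 protein-coding genes on each side gave 24 neighbours, of which 15 had a kept probe set. Of these, 0 passed against wild type in OX or RNAi and 4 passed between OX and RNAi, where 4.26% of all kept probe sets did. They are LOC4327501 beside LAC4, LOC4339220 and LOC4339223 around PRX74, and LOC4328550 near CAD2, with log2 differences of 5.37, -1.62, 1.81 and 1.39 and limma adjusted p values of 0.0173, 0.0256, 0.00633 and 0.0079. The gene next to LAC20 is another laccase, LAC19 (LOC4351005), which read 1.80 to 3.37 on the 6 arrays and was left out by the filter. LOC4327501, which lies next to LAC4, read 11.27 and 9.37 in OX, 6.88 and 5.41 in wild type and 6.05 and 3.84 in RNAi, so it was high in OX, where LAC4 overlapped wild type. The neighbours of 4CL3 with a kept probe set had differences between RNAi and wild type of -0.22 to -0.05, where 4CL3 stood at -2.14.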

How the data were processed

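Per the labels' protocols, 1-colour arrays received biotinylated cRNA made from 6 µg of Trizol-extracted RNA. The authors deposited log2 expression values for 57381 probe sets on 6 arrays; the submitters' processing notes name RMA with no version. The deposited log2 values hold 331 to 618 exact zeros per array, which RMA does not usually give, so how probe values were summarised is unknown. There are no detection calls. All 6 columns were used.

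The fits leave out 187 probe sets, 123 for array controls and 64 for reporters. Of the remaining 57194, 22436 map to 1 gene, 95 to several and 34663 to none listed. All 17905 gene identifiers were found in the RefSeq gene table, which gave names from symbols and synonyms. No sequence was available for use and none is shown.

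The test was limma 3.58.1 in R 4.3.3, with 1 mean per group over 6 arrays (3 residual degrees of freedom), a prior spread that follows brightness (4.70 prior degrees of freedom), two-sided, with Benjamini-Hochberg adjustment over 40466 kept probe sets and a threshold of 0.05. It was tested on simulated data whose spread followed brightness alone. That check therefore cannot show whether the trend suits these arrays. The genes, the lists and this fit were chosen with earlier results of these data known. Other pathway genes were counted by their kept probe set with the highest mean. Up to 4 called genes per list and comparison were named, by the largest difference without overlap, beside the 3 genes most like each of the 6; others named were chosen after their values were seen. Alternatives were no trend, no filter, a filter at log2 6, quantile normalisation, replicate number as a block, averaged probe sets and leaving out each array.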

Additional observations from a re-analysis of the deposited data

Results flagged for a closer look

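Some of the reporter probe sets of the array, which were left out of the comparisons, gave signal above wild type. One read 3.12 and 2.97 in wild type, 13.96 and 14.41 in OX, and 13.40 and 12.91 in RNAi, so it was bright in both transgenic groups. Another read 5.15 and 3.50 in wild type, 3.59 and 5.09 in OX, and 13.22 and 13.64 in RNAi, so it was bright in RNAi only. One more read 3.91 and 2.53 in wild type, 4.68 and 4.89 in OX, and 5.26 and 5.50 in RNAi, near log2 5 throughout. OX and RNAi arrays thus differed in reporter signal as well as in their OsUBA label, and the part of each in the values of the 6 genes cannot be told apart.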

How the results depend on the processing

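Counts of calls are given for OX against wild type, RNAi against wild type and OX against RNAi in that order. With the intensity trend they were 144, 313 and 1725 of all kept probe sets, 1, 4 and 6 of the 6 genes, and 0, 0 and 4 of the 25 other pathway genes. Without a trend they were 0, 1 and 5 probe sets, 0, 0 and 0 of the 6 genes (adjusted p = 0.0531 to 0.157 between OX and RNAi), and 0, 0 and 0 pathway genes (limma; 2, 7 and 7 at an unadjusted p under 0.05). Every call of the 6 genes and of the other pathway genes therefore rests on the trend, and those of CESA4, CESA7, CESA9, BC1 and PORA also ended without it. Leaving out 1 array at a time gave 0 to 223, 16 to 716 and 276 to 1830 probe sets, 0 to 1, 0 to 5 and 4 to 6 of the 6 genes, and 0 to 1, 0 to 3 and 0 to 5 other pathway genes. For all kept probe sets, the low ends came without OX replicate 1 for both comparisons of OX. For RNAi against wild type the low end came without wild-type replicate 2, and the count was nearly as low without wild-type replicate 1. In these fits a lone array left in a group is assumed to vary like the others. Averaging probe sets left 2 other pathway genes between OX and RNAi, LAC10 and ROMT-15. With the replicate number as a block, 1 other pathway gene, HCT2 (limma adjusted p = 0.0388), passed in place of 0 between RNAi and wild type. No call of the 6 genes changed. Same-numbered arrays deviated together at correlations of only -0.03 to 0.04, so no common shift by replicate number was seen. The labels state no pairing, and these correlations cannot show whether samples were handled in pairs. With a filter at log2 6 PRX74 no longer passed between OX and RNAi (adjusted p = 0.0629), which left 5 of the 6 genes. Of 216 differences of the 6 genes under other settings, 16 moved by more than the replicate SD, all without an RNAi array, and 0 changed sign among those called.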
